A study of Mus musculus with 12 samples.

Results

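Lysosomal hydrolases, the cofactors they need, the proteins of the lysosomal membrane and the proton pump that acidifies the organelle were followed in injured cortical neurons of the mouse. The set holds 56 genes, listed by gene name and function, a list drawn up with earlier results of these data known: 12 cathepsins and other peptidases, 10 glycosidases with the amidase Aga, 3 sulfatases, 3 lipid enzymes, 4 soluble cofactors, 10 membrane proteins, 3 sorting genes, 7 genes of the V-ATPase and 3 of the Tfeb family of transcription factors. They are 56 of the 55901 genes in the deposited table, and 52 of them passed the filter on low values together with 15016 genes in all. The RNA came from cultures of cortical neurons of C57BL/6J pups within 24 h of birth, grown for 7 days and treated early with arabinosylcytosine, which limits dividing glia. Each group had 4 libraries of polyadenylated RNA: Control cultures without injury, Trauma cultures scratched with a needle and collected after 24 h, and Trauma+TGF-β1 cultures scratched and kept for 24 h with 10 ng/mL TGF-β1, a cytokine of the transforming growth factor family. All groups shared the strain, the arabinosylcytosine and the culture medium. The labels do not say that the libraries of a group came from separate cultures or litters, so p-values measure the spread between these libraries, which may be technical.

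Lysosomes break down proteins, glycans, nucleic acids and lipids delivered by endocytosis and autophagy, and neurons depend on them to clear organelles and aggregated protein along long processes. Hydrolases are tagged with mannose 6-phosphate in the Golgi and carried by the mannose 6-phosphate receptors to endosomes, where the V-ATPase, a rotary pump with a membrane sector (V0) and a cytosolic sector (V1), supplies the acid in which they work. Transcription factors of the Tfeb family bind a short E-box sequence before many of these genes, and inherited loss of single hydrolases causes lysosomal storage disease, often with loss of neurons.

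Values are given as FPKM, by the study's methods reads scaled by gene length and by mapped reads, so that levels can be compared between genes. The deposited values had also been scaled between libraries, since their median-of-ratios factors were equal in all 12. Between 15052486 and 17381671 reads fell on genes in each library. Fold changes are on the log2(FPKM + 0.1) scale from one limma fit of the 12 libraries over all genes tested, and genes were called where the p adjusted by the Benjamini-Hochberg method did not exceed 0.05. Fold changes are followed by their standard error (SE). The neuronal label was checked against markers: Tubb3 was at a mean of 959.7 FPKM and Syt1 at 90.2 in Control. Glial RNA was present as well, with Gfap of astrocytes at 47.7 FPKM, Olig1 of the oligodendrocyte lineage at 24.7 and C1qa of microglia at 7.72. In such bulk RNA, fewer cells of a type and less RNA per cell cannot be told apart.

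In uninjured neurons the levels of the 56 genes spanned more than 3 orders of magnitude. Psap, the precursor of the saposins that present sphingolipids to their hydrolases, led with a mean of 354 FPKM, and its lowest Control library (341) lay above the highest library of any other member. The pump subunit Atp6v0d1 came next at 144 FPKM (range 137 to 157), ahead of the iduronate sulfatase Ids at 123 (115 to 133). Atp6ap1 at 104, Lamp1 at 101 and Atp6v1b2 at 96.7 followed, and their Control ranges overlapped each other. Among the proteases Ctsd (85.7) stood above Ctsb (73.4) without overlap, and both stood above Lgmn (24.5) and Ctsl (19.8). In all, 25 members had a mean of at least 10 FPKM in Control and 48 at least 1 FPKM. The 4 members that did not reach a mean of 0.5 FPKM over the 12 libraries were Ctsh, Atp6v0d2, Tfeb and Mitf.

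Scratch injury was set against Control to ask how lysosomal transcripts stood a day after mechanical damage. Of the 52 members tested, 7 were called (13.5%), where 6.0% of all genes tested were called. Of these 5 rose (3.3% of all genes) and 2 fell (2.7% of all genes). The peptidases Ctsa, Ctsd and Ctsz, the galactosidase Gla and the membrane protein Cd63 rose, and the pump genes Atp6v0a1 and Atp6ap1 fell. The changes were small, with fitted ratios from 0.912 (Atp6v0a1) to 1.35 (Gla). The fold change was positive for 39 of the 52 members, with a median of 0.073 on the log2 scale, against 46.6% of all genes and a median of −0.012. Libraries of the compared groups did not overlap for 8 members higher in Trauma (6.25% of all genes) and 2 lower (6.69%). With voom on the recovered reads 9 members rose and 1 fell, where 671 and 457 of all 15016 genes did. After a loess correction for GC content 6 rose (Aga in addition to the 5) and 2 fell, against 8.61% of all genes called. The count of 7 went to 3 without Trauma replicate 2 or Trauma replicate 3 and to 4 without Trauma replicate 4. Over all genes the count of 901 went to 561, 583 and 489 in these fits. Quantile normalization gave 7 members that rose and none that fell, where 459 and 277 of all genes did.

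The addition of TGF-β1 was compared with injury alone, with the same Trauma libraries on the other side. Of the 52 members 4 were called (7.69%), beside 12.1% of all genes. Ids and the sorting gene Ap3b1 rose (4.4% of all genes rose), and Gla and the cholesterol carrier Npc2 fell (7.71% of all genes fell). The median fold change of the members was 0.00086 on the log2 scale and that of all genes 0.0025, with 27 of 52 members positive. Libraries did not overlap for 5 members higher with TGF-β1 (10.2% of all genes) and 3 lower (12.0%). Across all genes the fold change in this comparison went with the GC content of the transcripts (rho of Spearman −0.47 across 14699 genes, which are no replicates of each other), while the members had a median GC content of 51.3% against 50.5% for all genes tested. Voom on the recovered reads called 4 members higher and 2 lower, where 1126 and 1431 of all 15016 genes were. With a loess correction for GC content 1 member rose (Grn) and 2 fell (Gla and Npc2), against 5.14% of all genes called. Quantile normalization gave 9 that rose and 2 that fell, where 1125 and 927 of all 15016 genes did. The count of 4 went to 0 without Trauma+TGF-β1 replicate 2, and to 2 without Trauma replicate 3 or 4 or Trauma+TGF-β1 replicate 1 or 4. Over all genes the count of 1819 went to 651, 1317, 861, 1472 and 802 in these fits, in that order.

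Set against uninjured Control, the injured cultures with TGF-β1 had 9 members called (17.3%, with 16.6% of all genes called). All 9 rose in limma (6.14% of all genes rose): Ctsa, Ctsc, Ctsd, Ctso, Ctss, Tpp1, Grn, Litaf and Laptm4b. No member was called lower, where 10.4% of all genes were. At an unadjusted p under 0.05 the count was 21 higher and 3 lower, and 4663 of all 15016 genes passed in either direction. With voom on the recovered reads 14 were higher and 1 lower, where 1312 and 1584 of all genes were. A loess correction for GC content gave 6 higher (Ctsa, Ctsd, Ctsz, Tpp1, Grn and Litaf) and 3 lower (Npc2, Atp6v0a1 and Atp6v1b2), with 13.9% of all genes called. The median fold change was 0.095 on the log2 scale against −0.0090 for all genes, and the groups did not overlap for 12 members higher (7.94% of all genes) and 1 lower (10.6%). The count was 4 without Control replicate 3 or without Trauma+TGF-β1 replicate 4, where the 2487 of all genes went to 1489 and 1683.

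**Figure D1:**
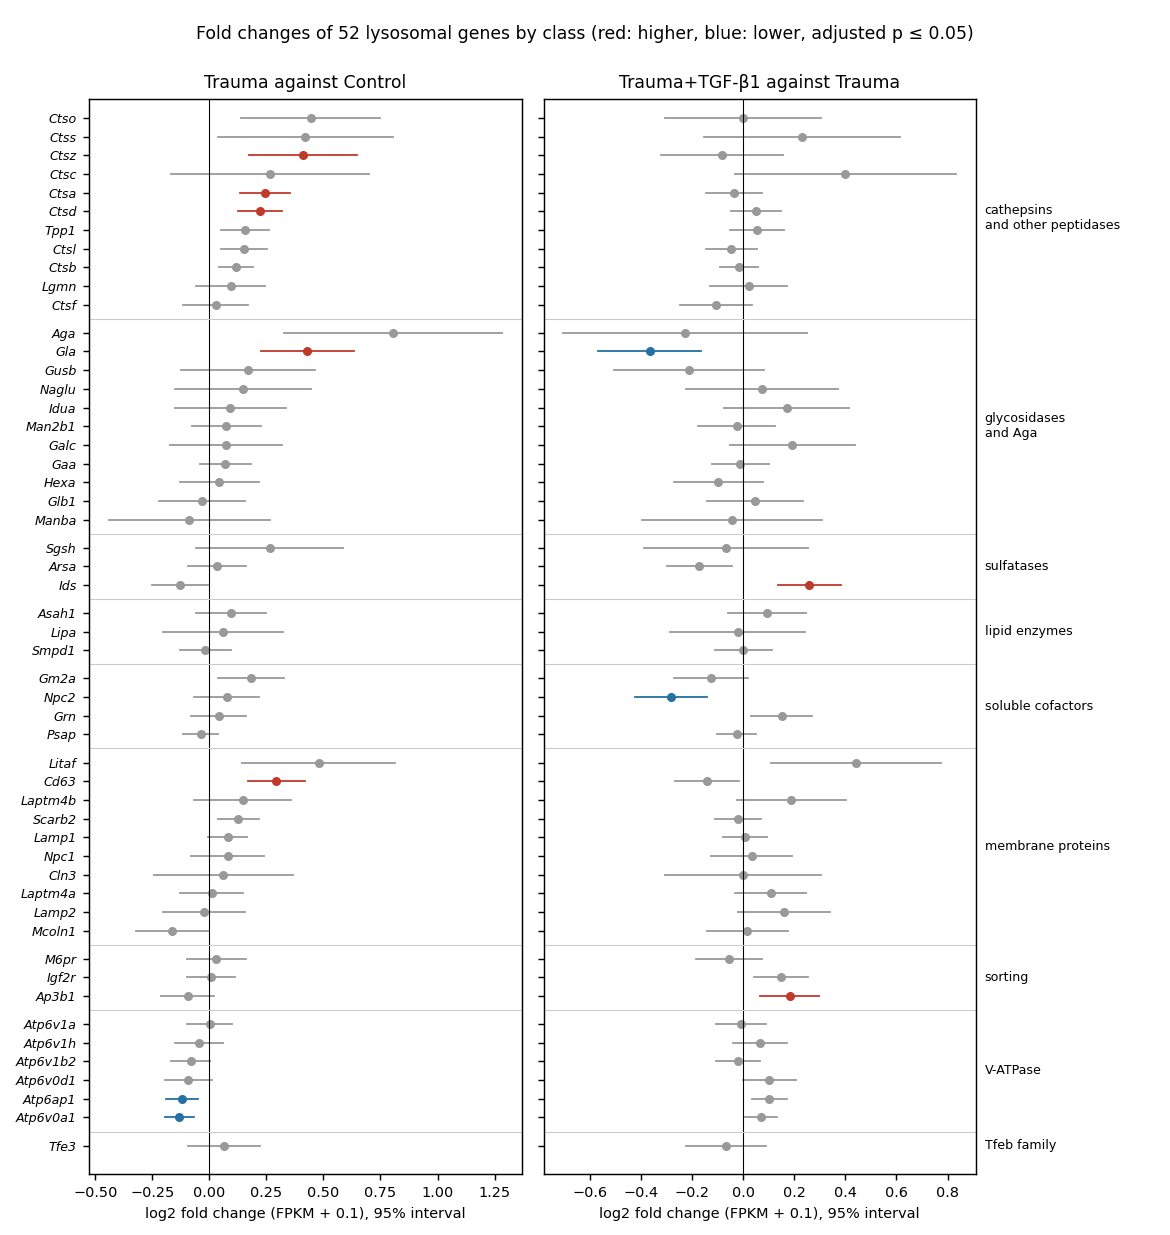
Fold changes of the 52 tested members on the log2(FPKM + 0.1) scale with 95% intervals, for Trauma against Control (left) and Trauma+TGF-β1 against Trauma (right), grouped by class. The 11 peptidases all sit right of 0 on the left, and the red and blue points mark the 7 and 4 members called higher or lower.

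Cathepsins and other peptidases were the class with most calls. In Trauma all 11 tested members had a positive fold change against Control, with a median of 0.22 on the log2 scale, and 3 of them rose (3.3% of all genes rose). With TGF-β1 none of the 11 was called against Trauma by limma (12.1% of all genes were), none at an unadjusted p under 0.05 and none with voom, and the median was 0.00070. Against Control 6 of the 11 rose with TGF-β1 (6.14% of all genes rose). The summed level of the 12 peptidases was 237 to 257 FPKM in Control, 274 to 283 in Trauma and 277 to 291 with TGF-β1, so that the libraries of each injured group lay above all Control libraries.

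Ctsd (ENSMUSG00000007891, chromosome 7 from 142375911 to 142388038 in GRCm38), the main aspartic protease of the lysosome, was at 83.4, 86.7, 83.3 and 89.4 FPKM in the Control libraries, 102, 99.4, 97.5 and 101 in Trauma and 113, 100.4, 103 and 97.9 in Trauma+TGF-β1. Every injured library, with or without TGF-β1, was above the highest Control library, and the injured groups overlapped each other. Ctsd had a fold change of 0.22 (SE 0.044, limma adjusted p = 0.0132) in Trauma against Control. With TGF-β1 it was 0.27 (SE 0.044, limma adjusted p = 0.00236) against Control and 0.052 (95% interval −0.045 to 0.15, limma adjusted p = 0.486) against Trauma. Both calls against Control were kept in 16 alternatives and without each of the 12 libraries. The 16 include FPKM as deposited, which repeated the main fit, and 4 of the 12 libraries lie outside each comparison.

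Ctsa (ENSMUSG00000017760, chromosome 2 from 164832873 to 164841032), a serine carboxypeptidase that also holds beta-galactosidase and neuraminidase in a complex, was at 12.4, 12.7, 12.2 and 13.6 FPKM in the Control libraries, 14.96, 14.04, 15.5 and 15.9 in Trauma and 14.4, 14.3, 15.5 and 14.8 in Trauma+TGF-β1. Here too the injured libraries lay above all Control libraries and overlapped each other. Its fold change was 0.24 (SE 0.050, limma adjusted p = 0.0149) in Trauma and 0.21 (SE 0.050, limma adjusted p = 0.0160) with TGF-β1, both against Control. The calls were lost without Trauma replicate 4 (adjusted p = 0.0523) and without Control replicate 3 (adjusted p = 0.0507). The gene overlaps Pltp and Neurl2, and the strand setting of the counting is not given, so reads of the overlapping stretches cannot be told apart.

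Ctsz (ENSMUSG00000016256, chromosome 2 from 174427493 to 174439039), a carboxypeptidase of the papain family, was at 7.71, 11.3, 10.1 and 11.1 FPKM in the Control libraries, 13.3, 15.1, 13.3 and 11.6 in Trauma and 12.3, 12.5, 12.6 and 12.6 in Trauma+TGF-β1. Control replicate 1 was the lowest library, and all Trauma libraries lay above all Control libraries. The fold change in Trauma was 0.41 (SE 0.11, limma adjusted p = 0.0467). This call held only without Control replicate 1, Control replicate 2 or Trauma replicate 4 among the libraries left out in turn, and in 10 of 16 alternatives. Its adjusted p ran from 0.0223 to 0.127 over the alternatives and omitted libraries. The gene overlaps Nelfcd at its end.

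Ctsb, the most abundant cysteine cathepsin here, was at 72.1, 77.4, 71.6 and 72.4 FPKM in the Control libraries, 81.8, 80.4, 77.4 and 78.3 in Trauma and 78.8, 80.3, 76.3 and 79.4 in Trauma+TGF-β1. Control replicate 2 reached the Trauma range, and the other Control libraries lay below all injured libraries. Fold changes were 0.12 (SE 0.034, limma adjusted p = 0.0706) in Trauma and 0.10 (SE 0.034, limma adjusted p = 0.0620) with TGF-β1 against Control, neither past the threshold. Between the injured groups the 95% interval of the Ctsb fold change was −0.088 to 0.060.

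Tpp1, a tripeptidyl peptidase whose loss causes a neuronal ceroid lipofuscinosis, was at 6.09, 5.94, 5.76 and 5.95 FPKM in the Control libraries, 6.56, 6.35, 6.99 and 6.66 in Trauma and 6.89, 6.63, 6.75 and 7.34 in Trauma+TGF-β1. Control libraries were the lowest without overlap in both comparisons, and the call was reached with TGF-β1 (0.21 (SE 0.049, limma adjusted p = 0.0120)) and not in Trauma (0.16 (SE 0.049, limma adjusted p = 0.0827)). The difference between these groups was 0.055 (limma adjusted p = 0.499). Ctss, a cathepsin that in brain is known mainly from microglia, was at 2.92, 4.33, 3.37 and 3.87 FPKM in the Control libraries, 5.82, 4.64, 3.83 and 5.26 in Trauma and 5.08, 4.58, 5.73 and 7.87 in Trauma+TGF-β1. Its fold change with TGF-β1 against Control was 0.65 (SE 0.18, limma adjusted p = 0.0265), and the call was lost without Control replicate 3 or Trauma+TGF-β1 replicate 4. It was also lost without a filter and with the GC correction, within an adjusted p of 0.0116 to 0.0698.

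Ctsc and Ctso were scarce and were called only with TGF-β1 against Control. Ctsc, which activates serine proteases of immune cells, was at 0.727, 0.658, 0.580 and 1.03 FPKM in the Control libraries, 0.827, 0.8289, 1.023 and 0.939 in Trauma and 1.46, 0.960, 1.50 and 1.05 in Trauma+TGF-β1, a fold change of 0.67 (SE 0.20, limma adjusted p = 0.0400). Control replicate 4 overlapped the treated range, and the call held without Control replicate 4 or Trauma+TGF-β1 replicate 2 and was lost without any other library (adjusted p 0.00915 to 0.107). Ctso was at 1.52, 1.34, 0.968 and 1.23 FPKM in the Control libraries, 1.70, 1.49, 1.90 and 1.90 in Trauma and 1.67, 2.01, 1.66 and 1.63 in Trauma+TGF-β1, with 0.45 (SE 0.14, limma adjusted p = 0.0489) on the log2 scale, and stayed called only without Control replicate 1 among the libraries left out (adjusted p 0.0191 to 0.154). The call of Ctsc held in 8 of 15 alternatives and that of Ctso in 6 of 16. The remaining tested peptidases Ctsf, Ctsl and Lgmn were not called in any comparison. Ctsh, an aminopeptidase, was below the filter, with 15, 18, 15 and 29 reads in Control, 29, 29, 37 and 34 in Trauma and 42, 36, 22 and 50 in Trauma+TGF-β1.

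**Figure D2:**
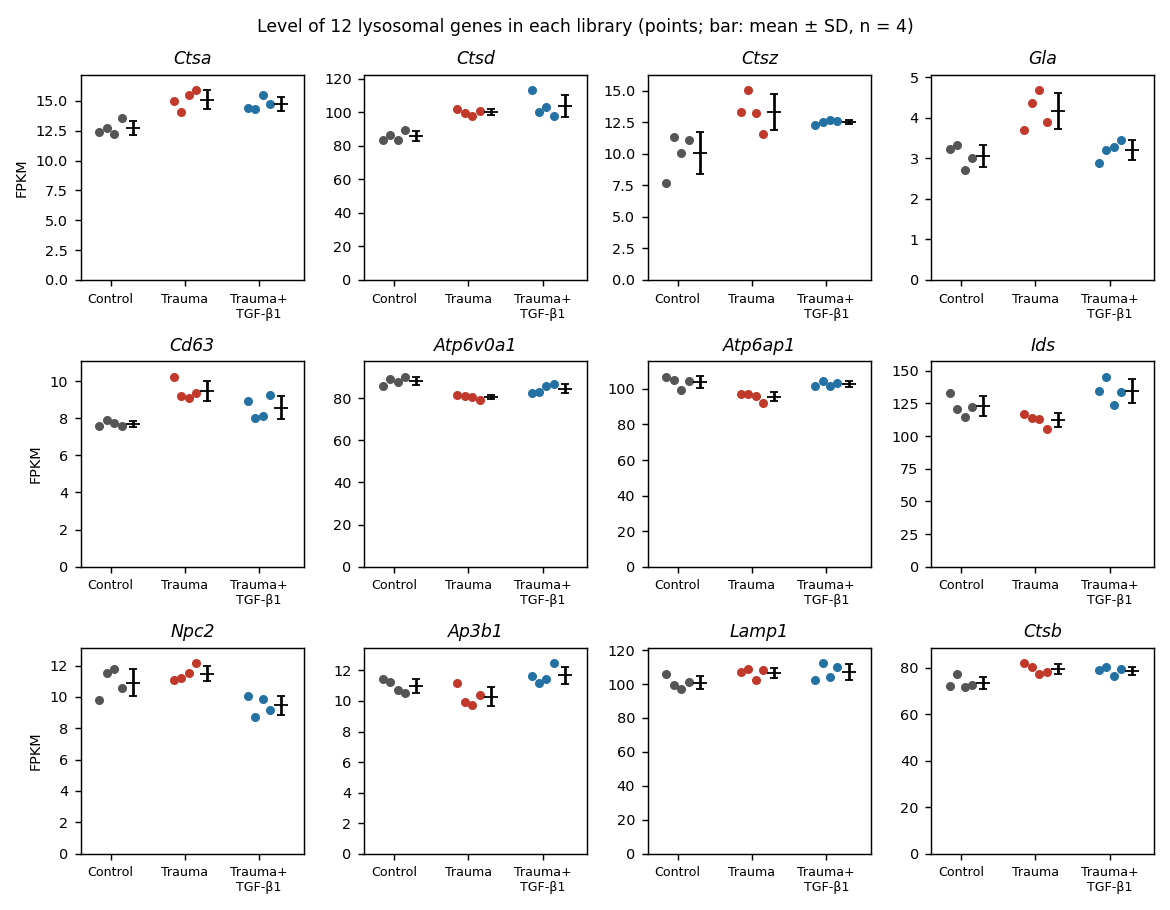
Level of 12 lysosomal genes in each library, in FPKM on linear axes from 0, with mean and SD of the 4 libraries beside the points. Ctsd and Ctsa lie higher in both injured groups, Gla is higher in Trauma than in both other groups, Npc2 is lowest and Ids highest with TGF-β1, and Lamp1 libraries overlap between all groups.

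Among the glycosidases, which trim sugars from glycoproteins and glycolipids, 1 of 11 rose in Trauma and the same gene was the 1 that fell with TGF-β1. Of all genes 3.3% rose in Trauma against Control and 7.71% fell with TGF-β1 against Trauma. Gla (ENSMUSG00000031266, chromosome X from 134588149 to 134601125), the alpha-galactosidase that is lacking in Fabry disease, was at 3.22, 3.33, 2.71 and 3.0004 FPKM in the Control libraries, 3.71, 4.37, 4.69 and 3.91 in Trauma and 2.88, 3.22, 3.29 and 3.44 in Trauma+TGF-β1. All Trauma libraries lay above all libraries of both other groups, which overlapped. The fold change was 0.43 (SE 0.093, limma adjusted p = 0.0186) in Trauma against Control and −0.37 (SE 0.093, limma adjusted p = 0.0273) with TGF-β1 against Trauma, and both contrasts use the same Trauma libraries. With TGF-β1 against Control it was 0.064 (95% interval −0.14 to 0.27, limma adjusted p = 0.685).

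The rise of Gla in Trauma was not called without Control replicate 3, Trauma replicate 2 or Trauma replicate 3 (adjusted p over alternatives and omitted libraries 0.01002 to 0.0592). That call was also lost with the compared groups alone and with the length correction and replicate block together. The fall of Gla with TGF-β1 was not called without Trauma replicate 2 or 3 or Trauma+TGF-β1 replicate 1 or 2 (adjusted p 0.0169 to 0.0887). It was also lost without a filter and with the length correction, with or without the replicate block. Aga, the amidase that cleaves the sugar from asparagine, had the largest fold change of the tested members in Trauma at 0.81 (SE 0.22, limma adjusted p = 0.0516), short of the threshold, and 0.78 (limma adjusted p = 0.0484) after the GC correction. It was at 0.644, 1.27, 0.712 and 0.978 FPKM in Control and 1.91, 1.56, 1.71 and 1.28 in Trauma, without overlap but with a wide spread at this low level. For Gaa, the acid alpha-glucosidase and most abundant member of the class, the 95% interval was −0.041 to 0.18 in Trauma against Control and −0.12 to 0.10 with TGF-β1 against Trauma. The other 8 glycosidases, Galc, Glb1, Gusb, Hexa, Naglu, Man2b1, Manba and Idua, were not called in any comparison.

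Of the 3 sulfatases, Ids was the 1 called, higher with TGF-β1 against Trauma, where 4.4% of all genes rose. Ids (ENSMUSG00000035847, chromosome X from 70343069 to 70365084), which removes sulfate from heparan and dermatan sulfate and is lacking in Hunter syndrome, was at 133, 121, 115 and 123 FPKM in the Control libraries, 117, 114, 113 and 105 in Trauma and 135, 145, 124 and 134 in Trauma+TGF-β1. All libraries with TGF-β1 lay above all Trauma libraries, and the Control range overlapped both. The fold change with TGF-β1 against Trauma was 0.26 (SE 0.057, limma adjusted p = 0.0164). It was 0.16 (adjusted p = 0.0827) after the GC correction, and the call was also lost without Trauma+TGF-β1 replicate 2, within an adjusted p of 0.00111 to 0.0827. Arsa, the arylsulfatase of myelin sulfatide, was at 10.3, 10.7, 10.7 and 10.4 FPKM in Trauma and 9.87, 9.04, 9.67 and 8.84 with TGF-β1, lower without overlap but not called (−0.17 (SE 0.058, limma adjusted p = 0.0749)). Sgsh, the heparan sulfamidase, overlapped in each comparison.

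The 3 lipid enzymes, the sphingomyelinase Smpd1, the acid lipase Lipa and the ceramidase Asah1, gave no call by limma or voom in any comparison, and at an unadjusted p under 0.05 the count was 0 in both comparisons with Trauma and 1 (Asah1) with TGF-β1 against Control. Among the 4 soluble cofactors Npc2 fell with TGF-β1 against Trauma, where 7.71% of all genes fell. Npc2 (ENSMUSG00000021242, chromosome 12 from 84754562 to 84773152), which hands cholesterol to the membrane transporter Npc1, was at 9.84, 11.5, 11.8 and 10.6 FPKM in the Control libraries, 11.1, 11.2, 11.5 and 12.1 in Trauma and 10.1, 8.74, 9.85 and 9.15 in Trauma+TGF-β1. All libraries with TGF-β1 lay below all Trauma libraries, a fold change of −0.28 (SE 0.065, limma adjusted p = 0.0196), while Control overlapped both groups. The call was lost without Trauma replicate 4 or Trauma+TGF-β1 replicate 2 or 4 (adjusted p 0.00608 to 0.0623 over alternatives and omitted libraries). It was also lost with the GC correction and replicate block together.

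Its partner Npc1 was at 3.29 ± 0.0869 FPKM in Trauma and 3.37 ± 0.308 with TGF-β1 (mean ± SD, n = 4), a fold change of 0.033 (SE 0.073, limma adjusted p = 0.811). Grn, the progranulin precursor that also governs lysosome function in neurons, was at 18.3, 18.8, 19.5 and 17.9 FPKM in the Control libraries, 20.3, 20.3, 18.01 and 18.1 in Trauma and 22.1, 21.9, 19.6 and 21.5 in Trauma+TGF-β1. It rose with TGF-β1 against Control (0.19 (SE 0.055, limma adjusted p = 0.0339)) and stood at 0.15 (SE 0.055, limma adjusted p = 0.0927) against Trauma. After the GC correction the difference from Trauma was 0.26 (limma adjusted p = 0.0349) and was called. The Grn call against Control was lost without Control replicate 1, 2 or 4 or Trauma+TGF-β1 replicate 1, 2 or 4 (adjusted p 0.00972 to 0.0907). It was also lost without a filter and without a trend. Psap had 95% intervals of −0.11 to 0.038 in Trauma against Control and −0.10 to 0.052 with TGF-β1 against Trauma. Gm2a, the activator protein for GM2 ganglioside, was not called in any comparison.

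Cd63 was the 1 of 10 membrane proteins that rose in Trauma, where 3.3% of all genes rose. Cd63 (ENSMUSG00000025351, chromosome 10 from 128900989 to 128912822), a tetraspanin of late endosomes and exosomes, was at 7.57, 7.91, 7.74 and 7.56 FPKM in the Control libraries, 10.2, 9.20, 9.08 and 9.33 in Trauma and 8.92, 8.01, 8.11 and 9.26 in Trauma+TGF-β1. Control libraries lay below all libraries of both injured groups, and the injured groups overlapped. Cd63 had a fold change of 0.29 (SE 0.057, limma adjusted p = 0.0111) in Trauma against Control, a call kept in 16 alternatives and without each of the 12 libraries. With TGF-β1 it was −0.14 (SE 0.057, limma adjusted p = 0.122) against Trauma and 0.15 (SE 0.057, limma adjusted p = 0.0914) against Control.

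Litaf (ENSMUSG00000022500, chromosome 16 from 10959275 to 11066157), an adaptor that sorts membrane proteins to lysosomes and is induced by inflammatory stimuli, was at 1.10, 0.821, 0.728 and 0.692 FPKM in the Control libraries, 1.21, 1.28, 1.14 and 1.11 in Trauma and 1.99, 1.59, 1.45 and 1.60 in Trauma+TGF-β1. The 3 groups were ordered without overlap, Control below Trauma below Trauma+TGF-β1. Litaf had a fold change of 0.92 (SE 0.15, limma adjusted p = 0.00260) with TGF-β1 against Control, the largest called change among the members, and it was called in 16 alternatives and without each of the 12 libraries. The single steps were 0.48 (SE 0.15, limma adjusted p = 0.0960) and 0.44 (SE 0.15, limma adjusted p = 0.0783) and were not called. Litaf overlaps Snn.

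Lamp1, the most abundant glycoprotein of the lysosomal membrane here, was at 106, 99.5, 97.01 and 101 FPKM in the Control libraries, 107, 109, 103 and 108 in Trauma and 103, 112, 104 and 110.1 in Trauma+TGF-β1. All groups overlapped, and the 95% interval of its fold change was −0.0041 to 0.17 in Trauma against Control and −0.078 to 0.092 with TGF-β1 against Trauma. Laptm4b, a membrane protein that binds ceramide and aids lysosomal mTORC1, was at 9.93, 10.2, 10.4 and 9.005 FPKM in the Control libraries, 10.4, 13.5, 9.69 and 10.4 in Trauma and 13.1, 13.7, 11.3 and 11.9 in Trauma+TGF-β1. Its libraries with TGF-β1 lay above all Control libraries, and Trauma overlapped both. It rose with TGF-β1 against Control (0.33 (SE 0.098, limma adjusted p = 0.0367)), a call lost without Control replicate 2, 3 or 4 or Trauma+TGF-β1 replicate 1, 2 or 4 (adjusted p 0.0103 to 0.105). The Laptm4b call was also lost with the GC correction, without a filter and without a trend. Lamp2, Scarb2, Npc1, Mcoln1, Cln3 and Laptm4a were not called in any comparison, with fold changes between −0.17 (Mcoln1, the calcium channel of lysosomes) and 0.13 (Scarb2, the receptor that carries glucocerebrosidase) in Trauma.

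Of the 3 sorting genes, Ap3b1 was called higher with TGF-β1 against Trauma, where 4.4% of all genes rose. Ap3b1 (ENSMUSG00000021686, chromosome 13 from 94358960 to 94566317), the beta subunit of the adaptor complex that carries membrane proteins to lysosomes, was at 11.5, 11.3, 10.7 and 10.5 FPKM in the Control libraries, 11.2, 9.91, 9.73 and 10.4 in Trauma and 11.6, 11.2, 11.5 and 12.5 in Trauma+TGF-β1. Trauma replicate 1 reached the lowest library with TGF-β1, and the other Trauma libraries lay below that group. The fold change against Trauma was 0.18 (SE 0.054, limma adjusted p = 0.0468). This call held only without Control replicate 1 or Trauma replicate 1 among the libraries left out, and in 9 of 16 alternatives (adjusted p 0.0292 to 0.127).

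The mannose 6-phosphate receptors differed from each other in place but not by a call in the main fit. Voom on the recovered reads called 2 of the 3 sorting genes higher with TGF-β1 against Trauma, where 1126 of all 15016 genes were. Igf2r, the large receptor, was at 8.89, 8.92, 8.71 and 7.90 FPKM in Trauma and 9.58, 9.76, 9.72 and 9.09 with TGF-β1, without overlap (0.15 (SE 0.049, limma adjusted p = 0.0669)). M6pr, the small receptor, overlapped in each comparison, with −0.054 (limma adjusted p = 0.598) with TGF-β1 against Trauma.

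The V-ATPase had the opposite sign to the peptidases in Trauma. Of its 6 tested members 2 fell (2.7% of all genes fell) and 5 had a negative fold change, with a median of −0.087 on the log2 scale. Atp6v0a1 (ENSMUSG00000019302, chromosome 11 from 101009452 to 101063719), the neuronal form of the large membrane subunit, was at 85.99, 88.97, 87.8 and 90.2 FPKM in the Control libraries, 81.6, 80.8, 80.6 and 78.96 in Trauma and 82.6, 83.03, 85.8 and 86.8 in Trauma+TGF-β1. All Trauma libraries lay below all libraries of both other groups. The fold change was −0.13 (SE 0.029, limma adjusted p = 0.0193) in Trauma against Control and 0.071 (SE 0.029, limma adjusted p = 0.127) with TGF-β1 against Trauma, and both use the same Trauma libraries.

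Atp6ap1 (ENSMUSG00000019087, chromosome X from 74297097 to 74304721), an accessory subunit needed to assemble the membrane sector, was at 107, 105, 99.2 and 105 FPKM in the Control libraries, 96.99, 97.2, 96.2 and 92.2 in Trauma and 102, 104, 101 and 103 in Trauma+TGF-β1. Again every Trauma library was below every library of both other groups. The fold change was −0.12 (SE 0.032, limma adjusted p = 0.0464) in Trauma against Control and 0.10 (SE 0.032, limma adjusted p = 0.0538) with TGF-β1 against Trauma. Neither pump call held with quantile normalization, without a trend or with the compared groups alone. The Atp6ap1 call was also lost with voom, without a filter, with the replicate block and with factors from the tested genes. It held in 9 of 16 alternatives, and that of Atp6v0a1 in 13 of 16. The call of Atp6v0a1 was lost without Control replicate 4 or Trauma replicate 2, 3 or 4 (adjusted p 0.00534 to 0.149), and that of Atp6ap1 held only without Control replicate 3 (adjusted p 0.0225 to 0.151).

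The V1 members Atp6v1a and Atp6v1b2, which form the catalytic ring, and Atp6v1h, which regulates it, were not called in any comparison as fitted above. Atp6v1b2 stood at −0.10 (SE 0.040, limma adjusted p = 0.1003) with TGF-β1 against Control, and at −0.16 (limma adjusted p = 0.0186) after the GC correction, which called it lower. For Atp6v1a the 95% interval was −0.097 to 0.098 in Trauma against Control. Atp6v0d1, the stalk subunit, was at 157, 140.4, 141 and 137 FPKM in Control and 133, 139, 135 and 133 in Trauma, which overlapped (−0.092 (SE 0.047, limma adjusted p = 0.314)). Its rare form Atp6v0d2, known from osteoclasts and macrophages, had 6, 2, 3 and 7 reads in Control, 15, 30, 20 and 16 in Trauma and 6, 8, 9 and 3 with TGF-β1. The Trauma counts lay above those of both other groups. In the fit without a filter the fold change was 1.37 (adjusted p = 0.0574) against Control and −1.07 (adjusted p = 0.102) with TGF-β1 against Trauma, not past the threshold.

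With the other subunits of the pump added, 20 genes of which 19 were tested, Trauma against Control had 0 up and 2 down, both of them the members above, by limma, with 0 up at an unadjusted p under 0.05 or with voom. Of all genes 3.3% rose and 2.7% fell by limma in this comparison. With TGF-β1 against Trauma no member was called, and 4 other subunits fell: Atp6v1f (−0.46 (SE 0.061, limma adjusted p = 0.00304)), Atp6v0b (−0.36 (SE 0.073, limma adjusted p = 0.0138)), Atp6v1g1 (−0.35 (SE 0.063, limma adjusted p = 0.00880)) and Atp6v0c (−0.27 (SE 0.062, limma adjusted p = 0.0202)). Of all genes 7.71% fell and 4.4% rose by limma with TGF-β1 against Trauma. No subunit was called higher by limma or voom, and 2 were higher at an unadjusted p under 0.05. Atp6v1f, a small subunit of the central stalk, was at 66.1, 68.3, 70.4 and 70.9 FPKM in Trauma and 53.6, 48.2, 50.6 and 48.1 with TGF-β1, without overlap. The 4 subunits that fell had gene lengths of 1063, 2051, 1135 and 3384 bases in that order, and the 6 tested members ran from 1793 to 9746. Across all genes the fold change with TGF-β1 against Trauma went weakly with length (rho of Spearman 0.22 across 15016 genes). After the GC correction Atp6v0c was no longer called (−0.11, adjusted p = 0.223), and it was also lost without Trauma replicate 2 or 4 or Trauma+TGF-β1 replicate 2 or 4.

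**Figure D3:**
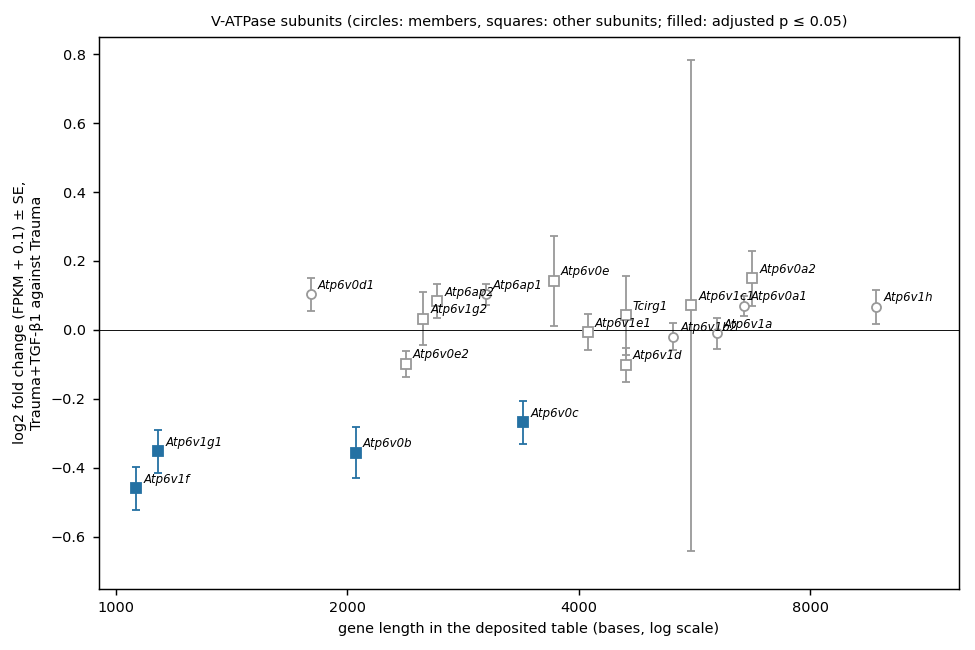
Fold change (log2, ± standard error) of 19 subunits of the V-ATPase with TGF-β1 against Trauma, by gene length on a log axis. The 4 filled squares, Atp6v1f, Atp6v1g1, Atp6v0b and Atp6v0c, lie below −0.2, and the 6 members (circles) lie between −0.020 and 0.10.

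The transcription factors of the Tfeb family were scarce. Tfe3 was the 1 of 3 that could be tested, at 4.49, 4.52, 3.72 and 4.61 FPKM in the Control libraries, 4.56, 4.24, 4.72 and 4.58 in Trauma and 4.44, 4.07, 4.35 and 4.38 in Trauma+TGF-β1. Its groups overlapped, with fold changes of 0.063 (SE 0.072, limma adjusted p = 0.694) in Trauma against Control and −0.068 (SE 0.072, limma adjusted p = 0.585) with TGF-β1 against Trauma, the latter positive (0.060) after the GC correction. Tfeb, the best known activator of lysosomal genes, had 26, 30, 39 and 25 reads in Control, 39, 82, 58 and 60 in Trauma and 29, 43, 44 and 40 with TGF-β1. Trauma replicate 2 was the highest library, and Trauma replicate 1 equalled Control replicate 3. Without a filter the fold change of Tfeb was 0.68 (limma adjusted p = 0.253) in Trauma against Control. Mitf had 45, 58, 36 and 44, then 34, 24, 56 and 49, then 33, 57, 35 and 33 reads, with all groups overlapping.

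The E-box of the family was looked up in the 300 bases around the RefSeq start of each gene (GRCm38.p6), from 250 before to 50 after, for the 46 members with an entry. The 8-base element TCACGTGA, which reads the same on both strands, was in the windows of 8 of the 46 (17.4%), against 1.12% of 27025 gene symbols with a window and 6 of 57 other lysosomal genes (10.5%). Its 6-base core CACGTG, also the same on both strands and part of the longer element, was in 17 of the 46 (37.0%) against 8.09% of all symbols and 9 of the 57 (15.8%). Of the 5 members that rose in Trauma, Ctsa, Ctsd and Gla hold the 8-base element and Ctsz and Cd63 do not hold it in this window. The other holders, Atp6v0d1, Atp6v1a, Cln3, Igf2r and Mcoln1, were not called in Trauma. The element was looked up because it is known before many of these genes. A higher share than that of all symbols was therefore given in advance and is no result of these data. A match of letters is a description of the window and no evidence of binding.

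The 250 bases before the RefSeq start are shown for the 3 genes that rose in Trauma and hold the element, with the element in capitals. The Ctsa stretch is chr2:164833523-164833772, plus strand, that of Ctsd chr7:142387828-142388077, minus strand and that of Gla chrX:134601006-134601255, minus strand. In all 3 the RefSeq start lies inside the gene as the deposited table bounds it.
Ctsa: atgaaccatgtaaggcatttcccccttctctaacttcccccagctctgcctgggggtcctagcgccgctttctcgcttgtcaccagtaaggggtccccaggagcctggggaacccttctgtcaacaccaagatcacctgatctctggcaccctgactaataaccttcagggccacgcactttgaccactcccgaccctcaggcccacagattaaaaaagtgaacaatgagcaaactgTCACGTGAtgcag
Ctsd: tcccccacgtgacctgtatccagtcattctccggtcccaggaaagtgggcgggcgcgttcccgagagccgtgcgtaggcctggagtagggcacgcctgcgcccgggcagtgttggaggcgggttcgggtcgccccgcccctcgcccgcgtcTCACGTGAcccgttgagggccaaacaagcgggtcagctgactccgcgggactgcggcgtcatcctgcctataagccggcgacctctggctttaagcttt
Gla: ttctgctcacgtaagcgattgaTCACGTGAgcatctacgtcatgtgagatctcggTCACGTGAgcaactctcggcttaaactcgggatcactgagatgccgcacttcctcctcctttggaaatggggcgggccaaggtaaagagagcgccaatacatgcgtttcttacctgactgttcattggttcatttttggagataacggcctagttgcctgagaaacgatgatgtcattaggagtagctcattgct
Ctsa has its copy at bases −13 to −6 from the start, with another at 5 to 12 that lies past the shown stretch. Ctsd has its copy at −99 to −92, and Gla has copies at −228 to −221 and at −195 to −188.

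For comparison, 30 bases around the element are shown for the holders that were not called in Trauma, again with the element in capitals. They are chr8:105566050-105566079, minus strand for Atp6v0d1, chr16:44139373-44139402, minus strand for Atp6v1a, chr7:126583340-126583369, minus strand for Cln3, chr8:3500462-3500491, plus strand for Mcoln1, and chr17:12769737-12769766, minus strand and chr17:12769696-12769725, minus strand for the copies of Igf2r.
Atp6v0d1: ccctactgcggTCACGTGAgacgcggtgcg
Atp6v1a: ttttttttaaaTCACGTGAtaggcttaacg
Cln3: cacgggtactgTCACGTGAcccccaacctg
Mcoln1: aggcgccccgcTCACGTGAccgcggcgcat
Igf2r, first copy: gaacgaggacgTCACGTGAgcaggaggcgg
Igf2r, second copy: gccgactcaggTCACGTGAcgctccgggga

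**Figure D4:**
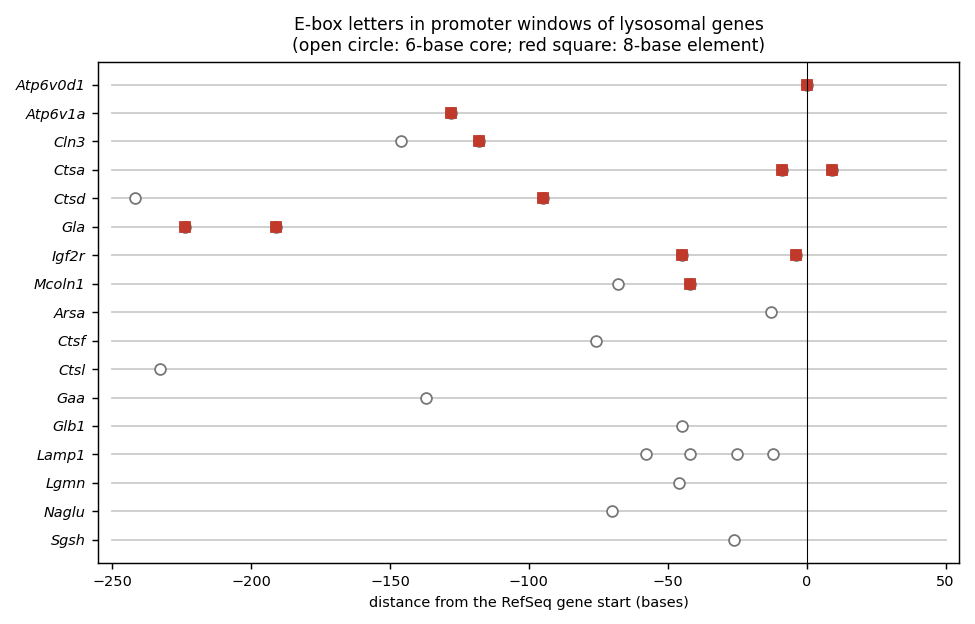
Position of the 6-base core (open circles) and the 8-base element (red squares) in the promoter windows of the 17 members that hold the core, by distance from the RefSeq start in bases. The 8-base element lies within 50 bases of the start in Atp6v0d1, Ctsa, Igf2r and Mcoln1, and Lamp1 holds 4 cores without the longer element.

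Markers of other cells moved in the same comparisons. Of all genes 3.3% rose and 2.7% fell in Trauma against Control, and 4.4% rose and 7.71% fell with TGF-β1 against Trauma. Against Control 6.14% rose and 10.4% fell with TGF-β1. Of 8 astrocyte markers 7 rose in Trauma against Control, Gfap by 0.86 and Aqp4 by 0.62 on the log2 scale, and their summed level was 212 to 240.3 FPKM in Control, 269 to 331 in Trauma and 285 to 305 with TGF-β1. With TGF-β1 against Trauma these markers moved both ways: Aqp4 rose (0.32), Aldh1l1, Gja1 and Aldoc fell, and Gfap stood at a mean of 97.1 against 87.3 FPKM and was not called. Of 12 markers of microglia and macrophages 7 were tested and 3 rose in Trauma (C1qa, C1qb and Tyrobp), with a summed level of 35.4 to 40.4 FPKM in Control, 49.2 to 59.4 in Trauma and 43.6 to 49.7 with TGF-β1. P2ry12, Tmem119, Aif1, Itgam and Trem2 of the same list were below the filter, with means of at most 0.335 FPKM in every group. Of these Tmem119 was higher with TGF-β1 (0.189 to 0.443 FPKM, 7 to 16 reads) than in Trauma (0 to 0.105 FPKM, 0 to 4 reads) without overlap. It was called in the fit without a filter (limma adjusted p = 0.0441). The 7 tested markers went mostly the other way with TGF-β1 against Trauma, with 1 positive fold change (50.5% of all genes were positive). C1qc was called lower (−0.39, limma adjusted p = 0.0492), a call lost with the GC correction, and C1qa (−0.32) and C1qb (−0.40) were not called. Of 8 oligodendrocyte lineage markers 5 were tested and 2 rose in Trauma (Olig1 and Mbp), with sums of 46.3 to 49.1, 57.5 to 64.7 and 56.9 to 63.4 FPKM. Of 10 neuronal markers 2 fell in Trauma (Tubb3 and Syt1) and 1 rose (Gad1), with sums of 1389 to 1457, 1251 to 1329 and 1181 to 1220 FPKM. Tubb3 made up most of that sum, with means of 959.7, 842 and 739 FPKM. With TGF-β1 against Control 4 neuronal markers rose (Map2, Slc17a6, Gad1 and Gad2) and 4 fell (Tubb3, Rbfox3, Syt1 and Slc17a7), and the median difference of the 10 from their Control means was 0.031 to 0.088 on the log2 scale, above the Control libraries (−0.023 to 0.017). Endothelial and fibroblast markers summed to at most 3.95 FPKM in any library, and neither of the 2 tested, Pdgfrb and Col1a1, was called by limma, while voom called both higher with TGF-β1 against Control and neither in the other comparisons. At an unadjusted p under 0.05 in limma both were higher with TGF-β1 against Control, 1 was higher in Trauma against Control and neither passed between the injured groups. The part of these cells in the changes of peptidases, Gla and Cd63 was not tested.

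Library by library, the median difference of the peptidases from their Control means was −0.058 to 0.096 in Control, 0.16 to 0.22 in Trauma and 0.17 to 0.27 with TGF-β1, on the log2 scale. For the microglial markers the same measure was 0.40 to 0.59 in Trauma and 0.22 to 0.45 with TGF-β1, and for the astrocyte markers 0.31 to 0.50 and 0.14 to 0.33. For the V-ATPase members it was −0.13 to −0.057 in Trauma, below all Control libraries (−0.037 to 0.025). Reads of mitochondrial genes made up 2.13% to 2.97% of reads in Control, 2.17% to 2.30% in Trauma and 2.69% to 3.23% with TGF-β1, without overlap between the injured groups, and their part in the changes with TGF-β1 was not tested.

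**Figure D5:**
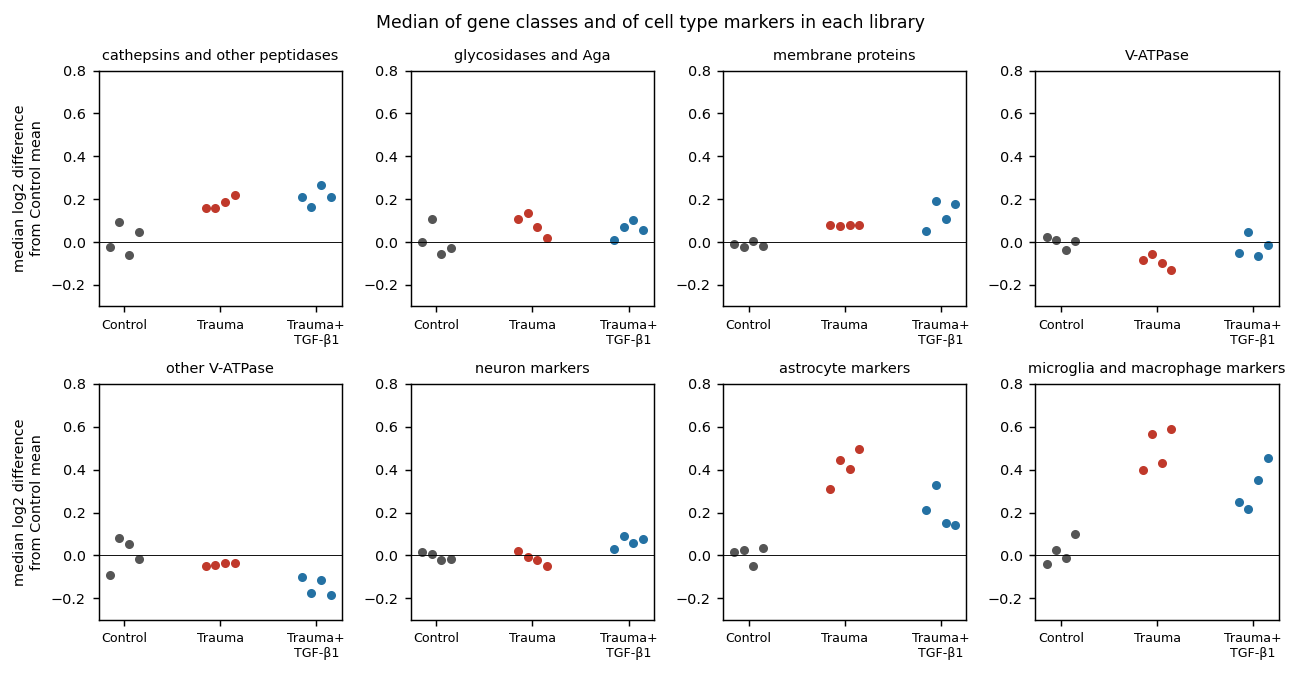
Median log2 difference from the Control mean in each library for 4 classes of members, the other V-ATPase subunits and 3 lists of cell type markers, on a common scale. Peptidases lie above Control in both injured groups, V-ATPase members lie below Control in Trauma, the other V-ATPase subunits are lowest with TGF-β1, and the medians of astrocyte and microglial markers lie above Control in both injured groups, whose ranges overlap.

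A further 75 genes of the lysosome that are no members were read from the same fit, 66 of them tested. In Trauma against Control 2 fell (3.03%, with 6.0% of all genes called), the lipid transporter Abca2 (−0.17 (SE 0.041, limma adjusted p = 0.0279)) and the adaptor subunit Ap3d1 (−0.16 (SE 0.032, limma adjusted p = 0.0120)), and none rose by limma. Higher were 5 at an unadjusted p under 0.05, which 2997 of all genes passed in either direction. With voom 1 was higher, where 671 of all genes were. With TGF-β1 against Trauma 8 were called (12.1%, with 12.1% of all genes called), 2 higher and 6 lower. Those that rose were Ap3m1 (0.28 (SE 0.063, limma adjusted p = 0.0186)) and Ap3s1 (0.19 (SE 0.050, limma adjusted p = 0.0326)), further subunits of the adaptor complex of Ap3b1, and those that fell were the peptide transporter Abcb9 (−0.41 (SE 0.083, limma adjusted p = 0.0132)), Gnptg of the enzyme that makes the mannose 6-phosphate tag (−0.18 (SE 0.044, limma adjusted p = 0.0248)), and the 4 pump subunits. Ap3m1 was lost with the GC correction and without Trauma replicate 2 or 4 or Trauma+TGF-β1 replicate 2 or 4, and Ap3s1 with the GC correction and without any of 7 libraries of the compared groups. With TGF-β1 against Control 14 were called (21.2%, with 16.6% of all genes called). Of these 5 rose, among them Cd164 (0.37 (SE 0.088, limma adjusted p = 0.0143)) and Cd68 of macrophages (0.37 (SE 0.10, limma adjusted p = 0.0321)), and 9 fell. Among those that fell were 6 of the 13 other pump subunits, where 10.4% of all genes fell. They were Atp6v0b (−0.42), Atp6v1f (−0.33), Atp6v1g1 (−0.27), Atp6v0c (−0.25), Atp6v1d (−0.17) and Atp6v0e2 (−0.16), with limma adjusted p from 0.00317 to 0.0376. After the GC correction Atp6v0c was not called. None of the 13 rose by limma, and voom called 1 higher and 6 lower.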

How the data were processed

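RNA of 12 libraries in 3 groups of 4 was sequenced by the authors as polyadenylated RNA in paired reads. Per the labels and methods, the authors aligned reads with HISAT2 2.0.5 to mm10, counted them on genes with featureCounts 1.5.0-p3, and deposited FPKM (reads scaled by gene length and by mapped reads) with the length of each gene in bases (other). StringTie 1.3.3b was part of their pipeline, and their own test on counts was not run here. The methods speak of fewer samples than the 12 libraries of the table. FPKM times length came out as whole multiples of 1 read in each library, within a tolerance of 0.05, which gave the reads. Median-of-ratios factors of the deposited FPKM were equal in the 12 libraries, so the values had been scaled between libraries before they were deposited.

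Genes with a mean of at least 0.5 FPKM (15016 of 55901) were tested on log2(FPKM + 0.1) by limma 3.58.1 under R 4.3.3. A single linear model of the 12 libraries without a block was fitted, moderated with an intensity trend, and p-values were adjusted after Benjamini and Hochberg over all genes tested. Since FPKM are not counts, voom on the recovered reads was an alternative. No libraries of a group agreed within sampling noise (lowest chi-square per degree of freedom 3.12). The members and lists were chosen with earlier results of these data known. Named with values in every library are members called in Trauma against Control or with TGF-β1 against Trauma, members under the filter, Lamp1, Ctsb, Ctsd and the Tfeb family, and those called with TGF-β1 against Control were added after their values were seen. Of 75 other lysosomal genes, those named are called ones of large change. Gene coordinates are those of the table, equal to GENCODE M21 (GRCm38) for 99.5% of 55154 genes. Of the 52 tested members 13 overlap another tested gene, and the strand setting of the counting is not given in the sources used here, so their reads may hold reads of the neighbour. Promoters came from RefSeq (GRCm38.p6), and Ctsb, Ctsh, Aga, Asah1, Npc1, Laptm4b, M6pr, Atp6v0d2, Atp6v1b2 and Atp6v1h had no entry. The alternatives tried were pseudocounts (1 and 0.01), a filter at 1 FPKM or none, FPKM as deposited, quantile normalization, no trend, the compared groups alone, the replicate number as a block, loess corrections (span 0.3) for length or GC content with and without that block, voom, protein-coding genes alone, each library left out in turn, and, chosen after seeing the data, factors from the tested genes. Python 3.11.15, pandas 2.3.3, numpy 2.4.6 and matplotlib 3.10.9 were used.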

Additional observations from a re-analysis of the deposited data

Results flagged for a closer look

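In 60 groups of 4 libraries (20 members in 3 groups), 3 had a library far from the other libraries of its group, and chance gives about 1 in 20. Ctsb was at 77.4 FPKM in Control replicate 2, with the other Control libraries at 71.6 to 72.4. Tfe3 was at 3.72 FPKM in Control replicate 3, with the others at 4.49 to 4.61. Ctso was at 2.01 FPKM in Trauma+TGF-β1 replicate 2, with the others at 1.63 to 1.67.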

How the results depend on the processing

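Members called in Trauma against Control numbered 7, and 4 without a trend and 3 with the compared groups alone, where 901, 815 and 518 of all genes were called. With TGF-β1 against Trauma they numbered 4, and 2 without a filter and 11 with quantile normalization, where 1819, 987 and 2052 of all genes were called. The fit without a filter tested 33142 genes. With TGF-β1 against Control the members called numbered 9, and 4 without a filter, 17 with quantile normalization and 15 with voom. Over all genes the counts were 2487, 1692, 2052 and 2896. Leaving out 1 library in turn gave 3 to 9, 0 to 6 and 4 to 11 in that order, and 489 to 875, 651 to 2539 and 1489 to 3389 over all genes. For the other lysosomal genes the counts were 2, 8 and 14. In Trauma against Control the 2 became 4 with factors from the tested genes, 1 without a filter, 1 without a trend, 1 with the compared groups alone, 5 with the GC correction (also with the replicate block) and 5 over protein-coding genes. Over all genes these fits called 874, 575, 815, 518, 1265 (1332 with the block) and 1067. With TGF-β1 against Control the 14 became 9 with quantile normalization and 8 with the compared groups alone, where 2052 and 1601 of all genes were called. Leaving out 1 library gave 1 to 4, 4 to 10 and 9 to 19. The causes of these shifts were not tested.

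Fold changes that turned sign were uncalled. With TGF-β1 against Trauma, Ctsa was 0.00427 with quantile normalization and 0.097 with the GC correction, Ctsz 0.00474 with the length and 0.057 with the GC correction, Lamp1 −0.023, Ctsb 0.033 and Tfe3 0.060 with the GC correction, and Ctsb 0.091 with quantile normalization. With TGF-β1 against Control, Atp6v0a1 was 0.067 and Atp6ap1 0.11 with quantile normalization, Atp6ap1 0.00171 with the length correction, and Tfe3 0.00792 with factors from the tested genes, 0.00790 with voom and 0.078 with the GC correction. The length and GC values were the same with the replicate block. Without 1 library, Lamp1 ran from −0.015 to 0.028 and Ctsb from −0.027 to 0.000616 with TGF-β1 against Trauma, and Tfe3 from −0.074 to 0.026 with TGF-β1 against Control and from −0.00647 to 0.094 in Trauma against Control.

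The libraries of a number did not pair: the deviations of 12 pairs with the same number had r from −0.0088 to 0.076, and 1 of 12 libraries correlated best with its own number in both other groups. With the replicate block the counts of members were 5, 3 and 7 and those of the other lysosomal genes 2, 8 and 13, where 786, 1517 and 2267 of all genes were called. The members and other lysosomal counts and 13 named genes were followed in each comparison. The other members called with TGF-β1 against Control were followed in that comparison. Under alternatives that keep all libraries 704 results kept their direction and side of the threshold, 55 lost and 34 gained a call, 22 turned sign and 16 counts moved by over 1.5 times. These alternatives include FPKM as deposited, which repeated the main fit. With 1 library left out the numbers were 504, 82, 8, 9 and 21, and 4 of the 12 libraries lie outside each comparison.

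Depth limits the scarce members: Ctsh, Atp6v0d2, Tfeb and Mitf had 2 to 82 reads per library.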
